A study of Homo sapiens with 6 samples.

Results

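The genes described here encode 10 antioxidant enzymes, namely the 6 peroxiredoxins PRDX1 to PRDX6, thioredoxin (TXN), the superoxide dismutases SOD1 and SOD2, and catalase (CAT). They were picked by symbol from the 37192 genes whose counted transcript was matched by identifier to the GENCODE annotation, and all 10 were found. Nascent transcription was measured by PRO-seq, which sequences the RNA held in engaged polymerases, in 2 libraries. Steady-state RNA was measured by RNA-seq of rRNA-depleted total RNA in 4 libraries. All 6 libraries came from untreated K562 cells, a human chronic myelogenous leukemia line, grown in a single flask in RPMI-1640 with fetal bovine serum and antibiotics. Replicates are therefore libraries rather than separate cultures, and p-values measure the spread between libraries only.

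Reactive oxygen species are removed in steps. Superoxide dismutases turn superoxide into hydrogen peroxide, and catalase and the peroxiredoxins break peroxide down. Peroxiredoxins use a reactive cysteine that is oxidized in the reaction, and most of them are then reduced by thioredoxin, which thioredoxin reductase recharges with NADPH. Red cells and their precursors, the lineage that K562 resembles, carry much haem and iron and are known for large amounts of peroxiredoxin 2, catalase and SOD1.

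Between 5521453 and 8673816 counts per RNA-seq library, and 6797095 and 7043089 counts in the PRO-seq libraries, fell on matched transcription units (TUs). All 11 erythroid markers checked were above 1 TPM, with a summed RNA-seq level of 12265 to 13125 TPM per library. Of 7 matched markers of other blood cells and tissues, 3 (LYZ, EPCAM and NKG7) were above 1 TPM, and the 7 summed to 451 to 466 TPM. Levels are given in TPM, which scales the count of each TU by its length and by the total of its library. They were computed here from the deposited counts, using the exon length of the transcript in RNA-seq and, in PRO-seq, its span less 1000 bp. A TPM is a share of its own library, so an RNA-seq and a PRO-seq value have no common absolute scale.

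The genes lie apart from each other on 8 chromosomes, and each was counted on the transcript named here (GRCh37, whole span). Chromosome 1 holds PRDX1 (ENST00000262746, chr1:45976708-45987610, minus strand) and PRDX6 (ENST00000340385, chr1:173446474-173457954, plus strand). Chromosome 11 holds CAT (ENST00000241052, chr11:34460481-34493607, plus strand) and PRDX5 (ENST00000265462, chr11:64085593-64089283, plus strand). PRDX3 (ENST00000298510) lies at chr10:120927232-120938324 on the minus strand and PRDX4 (ENST00000379341) at chrX:23685610-23704514 on the plus strand. TXN (ENST00000374517) lies at chr9:113006090-113018787 on the minus strand and SOD1 (ENST00000270142) at chr21:33032006-33041244 on the plus strand. PRDX2 (ENST00000301522) and SOD2 (ENST00000546087), on chromosomes 19 and 6, are placed below with the TUs that overlap them.

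Since decay elements usually lie near the 3′ end, the last 300 bases of each counted transcript were searched on the sense strand for ATTTA, the core of AU-rich elements, for TGTANATA, the Pumilio element, and for the polyadenylation hexamer AATAAA. The AU-rich core was present in 6 of the 10 genes and in 44.3% of 8724 mRNAs. TGTANATA was in none of the 10 and in 9.38% of mRNAs, and AATAAA was in 9 of the 10 (all but PRDX1) and in 67.8% of mRNAs. The ATTTA sites of 5 genes are shown, each within the annotated 3′UTR, with the element in capitals and 10 bases on each side (GENCODE transcripts on GRCh37, written as DNA of the sense strand). Whether these sites take part in decay was not tested.
PRDX3 (chr10:120927313-120927337, minus strand): tataaaggatATTTAtcaaatccag
PRDX6 (chr1:173457771-173457795, plus strand): cagggtttgcATTTAtcagtctgtt
TXN, upstream site (chr9:113006365-113006389, minus strand): aatttttttaATTTAcaaaaatata
TXN, downstream site (chr9:113006237-113006261, minus strand): tgaaatggtcATTTAatgtattttc
SOD2 (chr6:160100194-160100218, minus strand): ttgaagaaacATTTAttttccaatt
CAT (chr11:34493409-34493433, plus strand): ggaaaagtacATTTAatacagcagt

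The RNA-seq levels of these genes were high, and the PRO-seq levels were closer to those of other mRNAs. The 8 genes with a usable PRO-seq level had a median RNA-seq level of 559 TPM and a median PRO-seq level of 86.3 TPM, with libraries summed, against 31.2 and 47.5 TPM over the 8733 mRNAs that passed the thresholds of 10 TPM (PRO-seq) and 1 TPM (RNA-seq). The spread between RNA-seq libraries was small, with a coefficient of variation from 0.672% for PRDX1 to 4.95% for TXN. PRDX2 and SOD2 stood outside the comparison, PRDX2 because no PRO-seq read was counted for it and SOD2 because its PRO-seq level was just under 10 TPM.

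Among the typical peroxiredoxins, which work as dimers with a pair of cysteines, PRDX1 is the abundant cytosolic and nuclear form. Its RNA-seq levels were 1661, 1667, 1675 and 1687 TPM in replicates 1 to 4, and its PRO-seq levels were 183 and 181 TPM in replicates 1 and 2. These were the highest means among the 10 genes in RNA-seq and among the 9 with counts in PRO-seq, at 1672 ± 11.2 TPM (SD, n = 4) in RNA-seq and 182 ± 1.38 TPM (SD, n = 2) in PRO-seq. Among mRNAs with at least 1 count in the assay, the RNA-seq level of PRDX1 exceeded 99.5% and its PRO-seq level exceeded 96.7%.

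PRDX3, the mitochondrial peroxiredoxin, had 364, 354, 380 and 371 TPM in the 4 RNA-seq libraries. In PRO-seq it had 67.1 and 79.7 TPM, a gap wider than that of PRDX1 or PRDX4. PRDX4 is the form of the endoplasmic reticulum, where it passes oxidizing equivalents to folding proteins. Its RNA-seq levels of 427, 393, 410 and 416 TPM lay above all 4 values of PRDX3. Its PRO-seq levels of 29.6 and 30.5 TPM lay below both values of PRDX3, so the order of these genes turned around between the assays.

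PRDX5, an atypical peroxiredoxin found in mitochondria, peroxisomes and cytosol, had RNA-seq levels of 603, 629, 610 and 653 TPM. Its PRO-seq levels were 46.0 and 39.5 TPM and rest on only 32 and 28 counts, since 2691 bp of its short gene are left for counting. PRDX6, which has a single catalytic cysteine and also acts as a phospholipase, had 488, 492, 495 and 504 TPM in RNA-seq. With 174 and 160 TPM in PRO-seq, it was second to PRDX1 in PRO-seq level among the 9 genes with PRO-seq counts and sixth of 10 in steady-state RNA.

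Thioredoxin, the small protein that reduces oxidized peroxiredoxins and many other targets, had 695, 735, 699 and 772 TPM in RNA-seq. Its PRO-seq levels were 96.9 and 101 TPM. TXN had the largest relative spread between RNA-seq libraries of the 10 genes, and replicates 2 and 4 were both above replicates 1 and 3. The same separation of these library pairs, in either direction, was seen for 5 of the 10 genes (PRDX2, PRDX5, TXN, SOD2 and CAT), against 48.3% of the mRNAs. Records assigned to no TU split in the same way. They were 68.5% and 68.6% in replicates 1 and 3, and 66.5% in each of replicates 2 and 4. The SDs, standard errors and p-values given here treat the 4 libraries as separate, and may understate the spread. What set the pairs apart was not tested.

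SOD1, the cytosolic copper-zinc dismutase, had 1581, 1590, 1510 and 1511 TPM in RNA-seq and 108 and 113 TPM in PRO-seq. Its mean of 1548 ± 43.4 TPM (SD, n = 4) was second only to PRDX1, by a factor of 1.08 with no overlap of the libraries. Catalase, the peroxisomal enzyme that splits hydrogen peroxide without a reducing partner, had 133, 126, 135 and 130 TPM in RNA-seq. In PRO-seq CAT had 45.0 and 37.1 TPM, a range that overlapped only with that of PRDX5 among neighbours in the PRO-seq order. The other neighbours in either order were separated in every library.

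The comparison of RNA-seq with PRO-seq asks how much RNA accumulates per unit of PRO-seq signal. Under steady state, the ratio of RNA-seq TPM to PRO-seq TPM is taken as proportional to RNA half-life. It has no time unit and is given here as a log2 difference from the median mRNA. The paper states that PRO-seq measures engaged polymerases, and so reflects elongation rate as well as transcription rate. The part of elongation rate in the ratios given here was not tested. All 8 genes tested lay above the median mRNA, by 2.20 to 4.50 on the log2 scale, that is 4.60-fold to 22.7-fold (edgeR's quasi-likelihood test on counts, Benjamini-Hochberg adjusted p from 1.1e-33 to 2.1e-23). None lay below it, also at an unadjusted p under 0.05 and by DESeq2 (0 in each). Among all 8733 mRNAs tested, 45.4% were called above the median mRNA and 44.9% below, and among all 10053 TUs tested, 40.0% were called above it and 50.4% below. The test thus calls most mRNAs, and the sizes say more than the count. The median of the 8 genes was 3.67 on the log2 scale, against 0 for mRNAs, and the single genes exceeded between 91.0% and 99.5% of mRNAs.

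**Figure D1:**
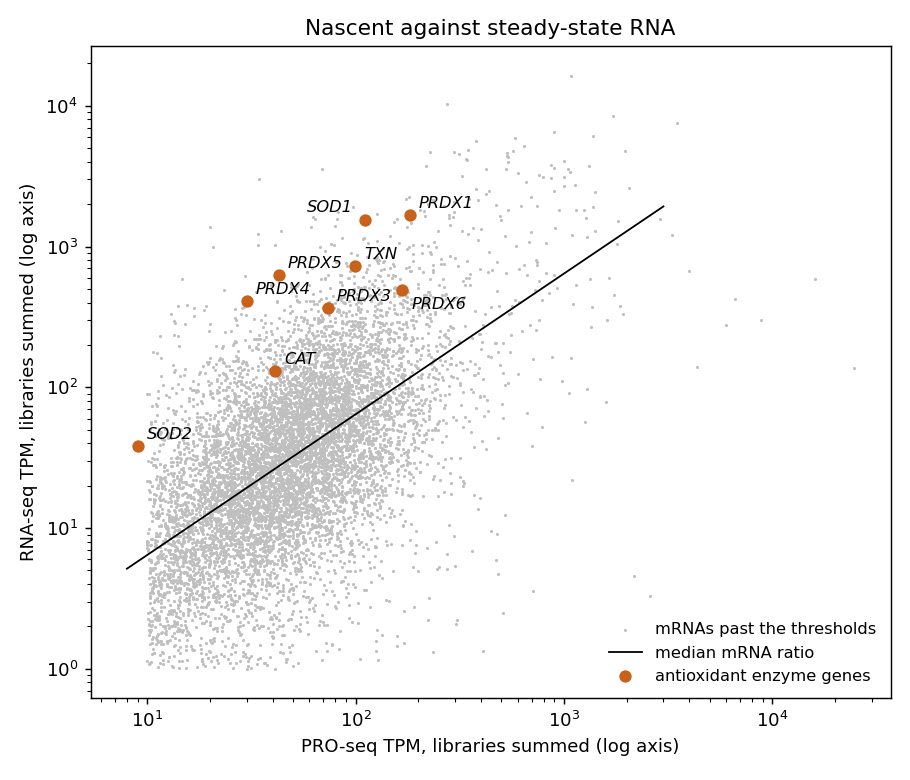
RNA-seq TPM against PRO-seq TPM (both log axes, libraries summed) for 8733 mRNAs in grey and for the antioxidant enzyme genes with PRO-seq counts in orange, with the median mRNA ratio as a line. All 9 orange points, SOD2 included, lie above the line, and their PRO-seq levels spread over the range of other mRNAs.

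PRDX5 had the highest relative half-life, at 4.50 ± 0.108 (log2 difference ± standard error), followed by SOD1 at 4.44 ± 0.0557 and PRDX4 at 4.41 ± 0.0720. The order of these 3 was not resolved. Over the 8 pairings of 1 RNA-seq with 1 PRO-seq library, PRDX5 was above SOD1 in 5 and SOD1 above PRDX4 in 4, and their ranges overlapped. PRDX1 at 3.84 ± 0.0445 and TXN at 3.51 ± 0.0619 came next, each apart from its neighbours in 8 of 8 pairings. PRDX3 followed at 2.96 ± 0.0686, also apart from its neighbours in 8 of 8. CAT at 2.31 ± 0.0695 and PRDX6 at 2.20 ± 0.0521 were lowest, with overlapping ranges and CAT above PRDX6 in 6 of 8 pairings.

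The ratios did not sort by the compartment of the protein. The mitochondrial PRDX3 and the partly mitochondrial PRDX5 differed from each other more than PRDX3 differed from the peroxisomal CAT, and the cytosolic PRDX1, TXN, SOD1 and PRDX6 extended from 2.20 to 4.44. Across the 8 genes, the means ranged over 12.8-fold in RNA-seq and 6.05-fold in PRO-seq, and the relative half-life ranged over 4.93-fold.

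Some genes had like PRO-seq levels and yet held different amounts of RNA, in pairs picked after their values were seen. PRDX1 and PRDX6 differed by 1.09-fold in mean PRO-seq TPM and by 3.38-fold in mean RNA-seq TPM. Their relative half-lives differed by 1.64 on the log2 scale, and by 1.57 to 1.70 over the 8 library pairings. PRDX5 and CAT differed by 1.04-fold in PRO-seq, with overlapping libraries, and by 4.76-fold in RNA-seq, a difference in relative half-life of 2.19 (2.08 to 2.30 over the pairings). SOD1 and TXN, at 1.12-fold in PRO-seq and 2.13-fold in RNA-seq, differed by 0.93 (0.81 to 1.03).

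By the pattern of log2 TPM over the 6 libraries, the mRNAs nearest to PRDX5 among 8715 compared were RPL36A, PDIA6 and TBCA, at Euclidean distances of 0.50, 0.51 and 0.51. Those nearest to PRDX6 were CCNB1, EIF4H and CNBP, at distances of 0.10, 0.17 and 0.19. CCNB1, the mitotic cyclin B1, had 492 TPM (RNA-seq) and 171 TPM (PRO-seq) with libraries summed.

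PRDX2, the peroxiredoxin of red cells, had RNA-seq levels of 534, 512, 548 and 526 TPM, or 530 ± 15 TPM (SD, n = 4), between those of PRDX5 and PRDX6. No PRO-seq read was counted for it in either library. The counted PRDX2 transcript lies on the minus strand of chromosome 19 (chr19:12907637-12912614, GRCh37) and wholly inside the counted transcript of HOOK2, a linker protein of the cytoskeleton, on the same strand (chr19:12884973-12983554). All 3978 bp of the PRDX2 span used for PRO-seq were shared with HOOK2, whereas none of its 925 exon bases were. HOOK2 itself had 570 and 621 PRO-seq counts and between 0 and 3 counts in each RNA-seq library. On the opposite strand, the lncRNA ENSG00000267062 also overlapped all of this span, with 2 and 1 PRO-seq counts.

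The PRO-seq count of 0 was typical of that position. Of 162 mRNAs with at least 100 RNA-seq counts that lay inside another counted TU on the same strand, 151 (93.2%) had no PRO-seq count. None of 267 mRNAs inside a TU of the opposite strand alone had 0 PRO-seq counts, and of 8996 not inside another TU 0.823% did. The AP-1 gene JUNB, which lies inside the HOOK2 span on the opposite strand and was picked after its values were seen, had 82 and 56 PRO-seq counts. A floor of 3 counts over both libraries would be 1.44 TPM for PRDX2. That floor covers counting error alone and not reads that HTSeq set aside as ambiguous, so no ratio is given for PRDX2. Ambiguous reads were 0.943% and 0.819% of all PRO-seq records. As 86.5% and 88.6% of these records were assigned to no TU, the ambiguous reads are a larger share beside the counted ones.

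SOD2, the manganese dismutase of mitochondria, had 36.9, 40.7, 36.7 and 38.3 TPM in RNA-seq and 8.92 and 9.07 TPM in PRO-seq. It was the lowest of the 10 genes in RNA-seq, and CAT, the next, was higher by 3.43-fold. These values belong to a transcript of 83411 bp (chr6:160100151-160183561, minus strand, GRCh37), whereas the transcript that the annotation selects for the gene (MANE Select) spans 24173 bp. The counted exons held 5.96% of the 14167 exon bases of the selected transcript. In addition, 73.2% of the span and 54.3% of the exon bases counted were shared with other counted TUs on the same strand, among them another SOD2 transcript with 0 counts in all 6 libraries. WTAP and ACAT2, on the opposite strand, overlapped 36.1% of the span and 3.83% of the exon bases. The ratio of the counted SOD2 transcript was 2.73 on the log2 scale relative to the median mRNA (2.66 to 2.81 over the 8 pairings). The parts of the choice of transcript and of the shared bases in these values were not tested. For the other 9 genes the counted exons held 100% of the selected transcript.

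The 8 genes tested shared no counted bases with another counted TU on the same strand. On the opposite strand, MMACHC, a cobalamin-processing gene, overlapped 13.6% of the PRO-seq span and 30.7% of the exon bases of PRDX1, and its own PRO-seq counts were 261 and 226. Whether the counting used strand was not stated in the methods or labels. In PRO-seq, a surrounding TU left 151 of 162 mRNAs with 0 counts on the same strand, and 0 of 267 on the opposite strand alone. Processed copies could also draw reads, since 22 pseudogenes in the annotation carry the symbol of a member, 7 of them of TXN. A single one, PRDX2P2, was among the counted TUs, with 0 counts in every library, and reads that align to several places were set aside by HTSeq. Levels of genes with such copies are therefore uncertain.

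The counted transcripts of the 10 genes were short, a feature that the choice of genes did not use. For SOD2 this holds for the counted transcript and not for the MANE Select transcript with its 14167 exon bases. Exon length of the counted transcript ranged from 737 (TXN) to 2558 bases (SOD2), and each lay below the mRNA median of 3064. The 3′UTRs of all 10 counted transcripts were shorter than the mRNA median of 1104 bases, from 65 bases in PRDX4 to 955 in PRDX6. Splice junctions were dense, with 8 of the 10 above the mRNA median of 3.08 per kb, PRDX4 at 6.28 and PRDX6 lowest at 2.37. Relative half-life moved with exon length over all mRNAs, with medians of 0.93, 0.26, -0.15 and -0.58 on the log2 scale in 4 equal bins of exon length from the shortest to the longest. Of the 8 genes tested, 7 fell in the shortest bin (108 to 1844 bases) and CAT in the next. Compared with mRNAs of their own bin, PRDX6 exceeded 75.9%, PRDX3 87.4% and PRDX5 98.4%. The part of length in these ratios was not tested.

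For PRDX4 and PRDX5, whose 3′UTRs have 65 and 123 bases, the 300 bases searched for ATTTA reach into the coding sequence. Relative half-life was not compared between genes with and without the element. A match describes the sequence and does not show that a protein binds there.

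The other genes of the pathway were drawn from 5 lists with 68 genes, of which 51 were tested, 12 were matched but under the thresholds and 5 were not analysed here. In all, 36 of the 51 (70.6%) were called above the median mRNA and 13 (25.5%) below, beside 45.4% and 44.9% of all mRNAs. Their median was 1.07 on the log2 scale, below each of the 8 antioxidant enzyme genes tested. For the pathway genes, neither the match of the counted transcript to MANE Select nor its overlap with other TUs was checked.

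Of 11 thioredoxin partners tested, 7 were above and 3 below the median mRNA. TXNRD1, the cytosolic reductase that keeps thioredoxin reduced, stood at 3.35 ± 0.0426 (log2 ± standard error), close to TXN itself, and the thioredoxin-like TXNL1 at 2.13 ± 0.0600. TXNIP, which binds and inhibits thioredoxin, was the lowest at -1.66 ± 0.0396 (edgeR adjusted p = 5.8e-26). Its mean PRO-seq level was 1853 TPM and its RNA-seq level 377 ± 7.58 TPM (SD, n = 4), that is, more nascent signal than any of the 9 antioxidant enzyme genes with PRO-seq counts and less RNA than 6 of the 8 tested. SESN3, a sestrin, was at -0.67 ± 0.103. The mitochondrial reductase TXNRD2, at -0.08, did not pass the test, nor did the malic enzyme ME2 of the NADPH list, at -0.03.

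The glutathione system, the parallel route of peroxide and thiol reduction, had 9 of 12 tested genes above and 3 below. Its list holds 23 genes, and no glutathione peroxidase was among those tested, so these counts leave the peroxidases out. GSTP1, a glutathione transferase, stood at 4.92 ± 0.0951 with 1902 ± 91.3 TPM in RNA-seq, the one pathway gene above PRDX5, and the mitochondrial glutaredoxin GLRX5 at 3.21 ± 0.0886. SLC7A11, the cystine importer that feeds glutathione synthesis, was lowest at -1.49 ± 0.0782, and GLRX2 was at -0.59 ± 0.0738. Among the enzymes that supply NADPH, 8 of 11 were above and 2 below. TALDO1 and PGD of the pentose phosphate pathway stood at 3.35 ± 0.0475 and 2.39 ± 0.0446, whereas PGLS was at -0.32 ± 0.110 and the malic enzyme ME1 at -0.30 ± 0.111 (edgeR adjusted p = 0.0085 and 0.012).

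All 4 tested genes of the list named superoxide dismutase partners, which handle copper in the cell, were above the median mRNA. CCS, the copper chaperone of SOD1, stood at 2.16 ± 0.119, COX17 at 1.71 ± 0.108, the copper importer SLC31A1 at 1.39 ± 0.0877 and ATOX1 at 0.91 ± 0.100. CCS had 71.6 ± 6.57 TPM in RNA-seq, far less than SOD1. Of 13 regulators and targets of NRF2, the transcription factor of the antioxidant response, 8 were above and 5 below. NQO1, a quinone reductase, was at 2.60 ± 0.0732 and RBX1 at 2.37 ± 0.0682. MAFF, a small partner of NRF2, was at -1.12 ± 0.178, and FTH1, the ferritin heavy chain, at -2.12 ± 0.0566. FTH1 has processed copies in the genome, so its level is uncertain.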

How the data were processed

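For each library the authors deposited raw read counts per transcript. Per the methods, Cutadapt trimmed the reads, HISAT2 aligned them to GRCh38, and HTSeq counted them per GENCODE transcript, which for PRO-seq was shortened by 500 bp on either side. Neither tool versions nor the use of strand were stated in the methods or labels. Rows that name no TU (66.5% to 68.6% of RNA-seq records, 86.5% and 88.6% of PRO-seq records) and 801 LRG rows, which were 0, were left out.

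Of 42371 transcripts, 88.1% were matched by identifier to GENCODE on GRCh37, not the build of the counting, which supplied symbols, lengths and coordinates. Counts were summed over libraries for TPM, and 84 TUs no longer than 1000 bp were left out. For each TU past 10 TPM (PRO-seq) and 1 TPM (RNA-seq), RNA-seq was tested against PRO-seq with edgeR 4.0.16 (R 4.3.3; quasi-likelihood test, TMM, length offsets, centred on the median mRNA, Benjamini-Hochberg over all TUs). DESeq2 1.42.0 was an alternative. Other steps used Python 3.11.15. Tested on simulated data for this comparison, with a log2 change of 1 given to 200 of 10053 TUs, edgeR found 90% of them and made 7 false calls. The simulation set a single spread for all TUs, not estimated from these libraries, and gave the other TUs no difference. In the real data 40.0% of TUs were called above the median mRNA and 50.4% below, so these rates do not carry over to them. Standard errors and SDs cover neither other cultures nor reads copied by PCR.

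The genes named were the 10 members, the 2 highest and 2 lowest called genes of each pathway list, annotated pseudogene copies, genes overlapping a member and, for the highest and lowest member, the 3 nearest mRNAs. JUNB, TXNRD2 and ME2 fall outside this rule and were chosen after their values were seen. Members and lists were chosen with earlier results of these data known. A gene of the pathway lists and a sequence are not reported here.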

Additional observations from a re-analysis of the deposited data

How the results depend on the processing

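The direction and the call of the 8 genes tested held under the 16 alternatives run for each: DESeq2, library totals, other thresholds, 500 bp removed for PRO-seq, a 2-fold difference tested, centring on all TUs, a replicate block, each library left out, and RNA-seq replicates 1 and 3 and replicates 2 and 4 summed (chosen after seeing the data). Here, 500 bp removed means that PRO-seq counts were scaled by the span less 500 bp in place of 1000 bp. Reads were not recounted, and the counts stayed as deposited. SOD2 passed with at least 1 or at least 10 summed counts and no TPM thresholds, and with 500 bp removed, making 9 genes above the median mRNA. At 10 counts it stood at 2.85 on the log2 scale (edgeR adjusted p = 1.1e-26, with the 3 adjusted p-values at most 2.7e-23). These SOD2 values keep the limits of its counted transcript, with 73.2% of the PRO-seq span shared with other TUs on its strand. PRDX2 had no value under any alternative.

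The median of the tested genes was 3.67. It was 3.52 with 500 bp removed and 4.14 with at least 1 summed count, both with SOD2 included, 3.42 with CPM without length, and 3.91 when centred on all TUs, whose median lies at -0.24. The mean of the libraries' TPM and a pseudocount of 1 TPM moved it by less than the spread between libraries. It ranged from 3.66 to 3.68 with each library left out. In CPM, which does not divide by length, the RNA-seq rank of 6 of the 10 genes changed. The 13 pathway genes below the median mRNA were 5 with at least 1 summed count, 3 when a 2-fold difference was tested and 8 when centred on all TUs. With each library left out they were between 11 and 14. Leaving out a PRO-seq library leaves 1, whose spread is then taken from the RNA-seq libraries. Scaling by the span less 500 bp, with the same counts, also exchanged PRDX5 and CAT in the PRO-seq order. For none of these was the cause tested.

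The libraries of the assays share the replicate numbers 1 and 2. The differences between replicates 1 and 2 had a correlation of -0.0315 over 9962 TUs, so no shared effect of the replicate number was detected and the libraries were not treated as paired. Under the replicate block, 8 members were above the median mRNA and 0 below, and 35 pathway genes were above and 11 below.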
